A study of Homo sapiens with 2 samples.

Results

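Among genes of oxidative phosphorylation in UACC62 melanoma cells, most differed little between a culture that had received an siRNA against FOSL1 and a culture that had received a non-targeting control siRNA. The genes were those whose symbol starts with NDUF, UQCR or ATP5, is COX followed by a digit, or is SDHA, SDHB, SDHC, SDHD or CYC1, without pseudogenes and hyphenated symbols. This gave 34 of the 14884 genes named on the array. The brightest probe set (by the mean of both arrays) stood for a gene that had several. Of the 34, 20 passed a filter on dim genes, 3 of them 1.2-fold or more higher and 0 lower. Most genes of the array also differed little: of all genes past the filter, 20.9% were 1.2-fold or more higher or lower. UACC62 is an established human melanoma line, grown in DMEM with fetal calf serum, and both cultures were harvested 3 days after transfection. FOSL1, also called FRA1, belongs to the FOS family and, bound to a JUN protein, acts as the transcription factor AP-1. Each condition was represented by 1 array, so no test was possible and the values describe these 2 arrays. The sources used here do not give the number of siRNA sequences, so effects on other transcripts cannot be told apart from those of FOSL1 depletion.

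Oxidative phosphorylation passes electrons from NADH and succinate along complexes of the inner mitochondrial membrane to oxygen, and the proton gradient so built drives the ATP synthase. Complex I takes up electrons from NADH, complex III hands electrons from ubiquinol to cytochrome c, and complex IV, cytochrome c oxidase, reduces oxygen to water. The catalytic core of complex IV is encoded by mitochondrial DNA. It is surrounded by small nuclear-encoded subunits, and it needs assembly factors that insert its membrane segments, copper and haem. The genes measured here were all nuclear.

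The set covered the pathway unevenly. RefSeq held 107 protein-coding genes that meet the same rule, and the 34 with a named probe set made up 31.8% of them. Of the COX genes 23 of 29 were named, and of the UQCR genes with CYC1 6 of 10. The table named 3 of 19 ATP5 genes, 2 of 45 NDUF genes and 0 of 4 SDH genes, and the remaining genes were not analysed here. The label of oxidative phosphorylation therefore rests mainly on cytochrome c oxidase and its assembly factors. Complex I appears only through the assembly factors NDUFAF7 and NDUFAF8.

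Values were taken as log2 intensities, from 2.23 to 14.8 over 53427 probe sets, with a median of 6.89 on the FOSL1 siRNA array and 6.88 on the control array. FOSL1 itself had a log2 value of 10.38 with FOSL1 siRNA and 11.90 with control siRNA, 2.88-fold lower. Of 10 melanoma markers 8 were named and 5 passed the filter described next (MITF, SOX10, MLANA, TYR and S100B). PMEL (6.90 and 6.62 on the FOSL1 siRNA and control arrays), TYRP1 (6.47 and 6.50) and GPR143 (6.59 and 6.97) lay under that filter. None of the 5 keratinocyte, 2 leukocyte and 2 endothelial markers with a name passed it, while LUM, 1 of 2 named fibroblast markers, did, with 11.53 and 11.05 on the FOSL1 siRNA and control arrays, and DCN was at 3.97 and 4.15. The part of such markers in any result was not tested. In bulk RNA, a change in how many cells express a gene and a change in RNA per cell cannot be told apart.

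Dim genes were set aside by a filter: a gene passed where its mean over both arrays reached 8.021, the median of all named genes. The filter kept 7442 genes, among them 20 of the 34. COX7A2L (mean 7.998) lay just under it and COX7C (mean 8.534) was the dimmest that passed. Differences are log2 values, FOSL1 siRNA minus control siRNA, and a positive one is higher with FOSL1 siRNA. In 195 genes, 2 or more probe sets past the filter carried distinct values, and over these the SD of this difference between probe sets of 1 gene was 0.177. That spread leaves out any variation between cultures.

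The group as a whole lay at the middle of all genes. The median difference of the 20 genes past the filter was -0.01, against -0.00077 over all 7442 genes, and 10 of the 20 were above 0 and 10 below, where 49.8% and 50.1% of all genes were. Over all 34 genes, 17 lay above 0 and 17 below, with a median of -0.01 and a range from -0.49 to 0.45. Of the 14 under the filter 7 were above 0, where 41.0% of all genes under it were. NDUFAF8, UQCRHL and COX18 made 3 of the 20 that were 1.2-fold or more higher with FOSL1 siRNA, where 11.1% of all genes were. Without COX6A1, UQCRH and UQCRHL, a setting chosen after seeing the data because near-identical sequences can share their signal, 2 of the 18 left past the filter were. Lower by 1.2-fold or more were 0 of the 20, where 9.78% of all genes were. At 1.1-fold, 4 of the 20 were higher and 5 lower, where 25.0% and 24.1% of all genes were. At 1.5-fold no gene of the group was called in either direction, with 1.13% of all genes higher and 0.766% lower. Differences beyond the SD between probe sets were seen for 5 of the 20 genes (COX18, NDUFAF8, UQCRHL, COX7B and COX8A), a share of 25%, against 38.5% of all genes. Higher by more than this SD were 4 of the 20 (20%), against 19.9% of all genes, and lower 1 of the 20 (5%), against 18.6%.

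**Figure D1:**
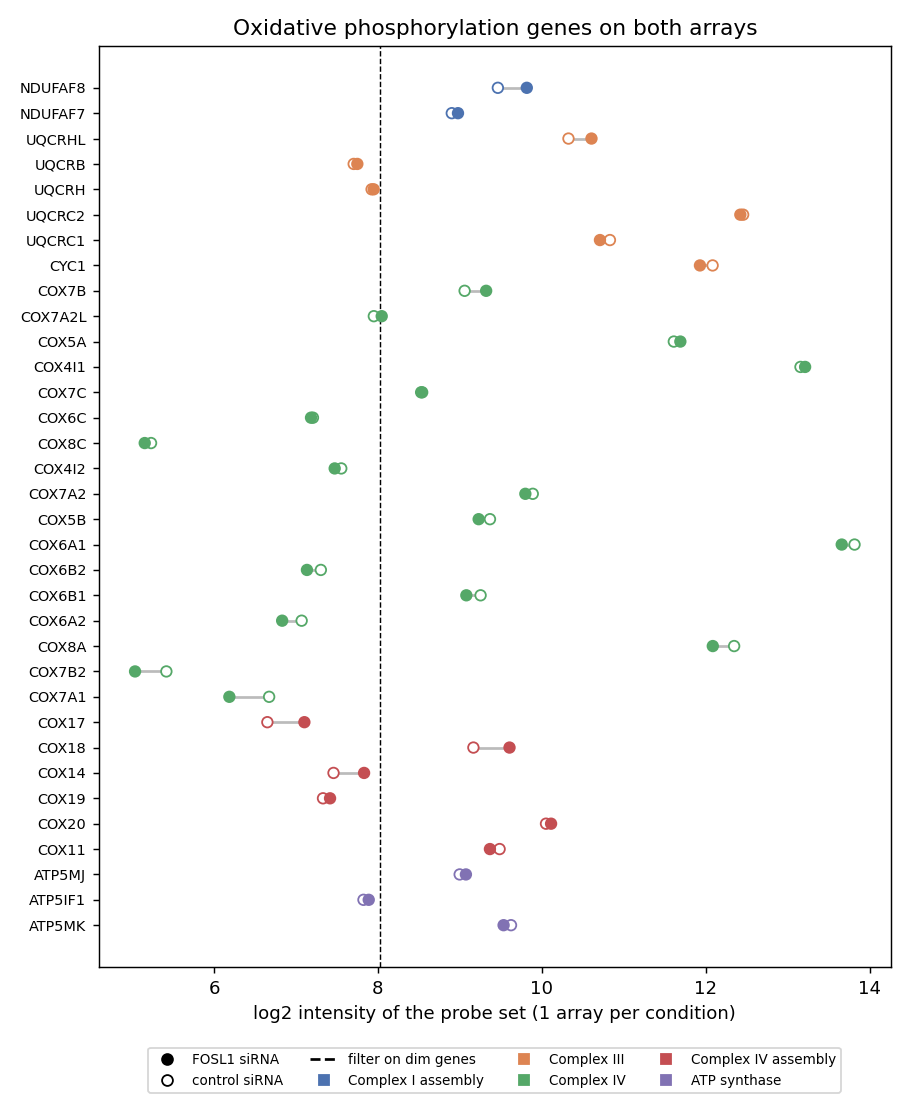
Log2 intensity of the probe set of each of the 34 genes (horizontal axis) with FOSL1 siRNA (filled) and control siRNA (open), coloured by complex, 1 array per condition; the dashed line is the filter at 8.021. The filled and open points of a gene lie less than 0.5 log2 units apart in every case; positions of different genes are not comparable, since each probe set has its own brightness.

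Of 8 assembly factors 7 lay above 0, where 45.4% of all 14884 named genes did, and their median difference was 0.22. COX19, COX20 and NDUFAF7, of these 7, lay within the SD between probe sets. The median of the 5 past the filter was 0.08, with 4 above 0. The 15 subunits past the filter had a median of -0.09, with 6 above 0. Of all genes past the filter 49.8% were above 0. Among 33 further assembly factors of the respiratory chain past the filter, described with the neighbouring pathways, 17 were above 0 and the median was 0.02. Taking assembly factors and subunits each together was chosen after seeing the data, so these counts are no independent support. The difference between the roles was not tested.

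COX18, the inner membrane insertase that moves the tail of the mitochondrially encoded subunit COX2 across the membrane (Entrez gene 285521), had a log2 value of 9.61 with FOSL1 siRNA and 9.17 with control siRNA. Its difference of 0.44, 1.36-fold higher, ranked 239 of 7442 from the highest, the top of the group among genes past the filter. COX20, a chaperone of the same subunit COX2, had 10.11 with FOSL1 siRNA and 10.05 with control siRNA, a difference of 0.06 within the SD between probe sets.

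Copper delivery genes were on both sides of 0. COX17, the copper chaperone that feeds the later copper carriers (Entrez gene 10063), had 7.10 with FOSL1 siRNA and 6.65 with control siRNA, and its difference of 0.45 was the highest of all 34 genes. Its value lay under 8.021 on both arrays. COX11, which passes copper to the core subunit COX1, had 9.37 with FOSL1 siRNA and 9.48 with control siRNA. Its difference of -0.12 was the only negative value among the 8 assembly factors. COX19, a small intermembrane space protein that works with COX11, had 7.42 and 7.33 on the FOSL1 siRNA and control arrays, a difference of 0.09 under the filter.

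COX14, which holds newly made COX1 during assembly, also lay under the filter, with 7.83 with FOSL1 siRNA and 7.46 with control siRNA, a difference of 0.37. For genes under the filter the spread was wider: the SD of the difference over all 7442 such genes was 0.288, against 0.225 over the 7442 genes past it. At least 1.2-fold higher were 12.3% of the genes under the filter.

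Complex I was represented by a pair of assembly factors, both above 0. NDUFAF8, a small protein that stabilises the assembly factor NDUFAF5 (Entrez gene 284184), had 9.82 with FOSL1 siRNA and 9.46 with control siRNA. It was 1.28-fold higher, a difference of 0.35 that ranked 441 of 7442. NDUFAF7, a methyltransferase of the mitochondrial matrix, had 8.98 with FOSL1 siRNA and 8.90 with control siRNA, a difference of 0.08 that lay within the SD between probe sets.

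**Figure D2:**
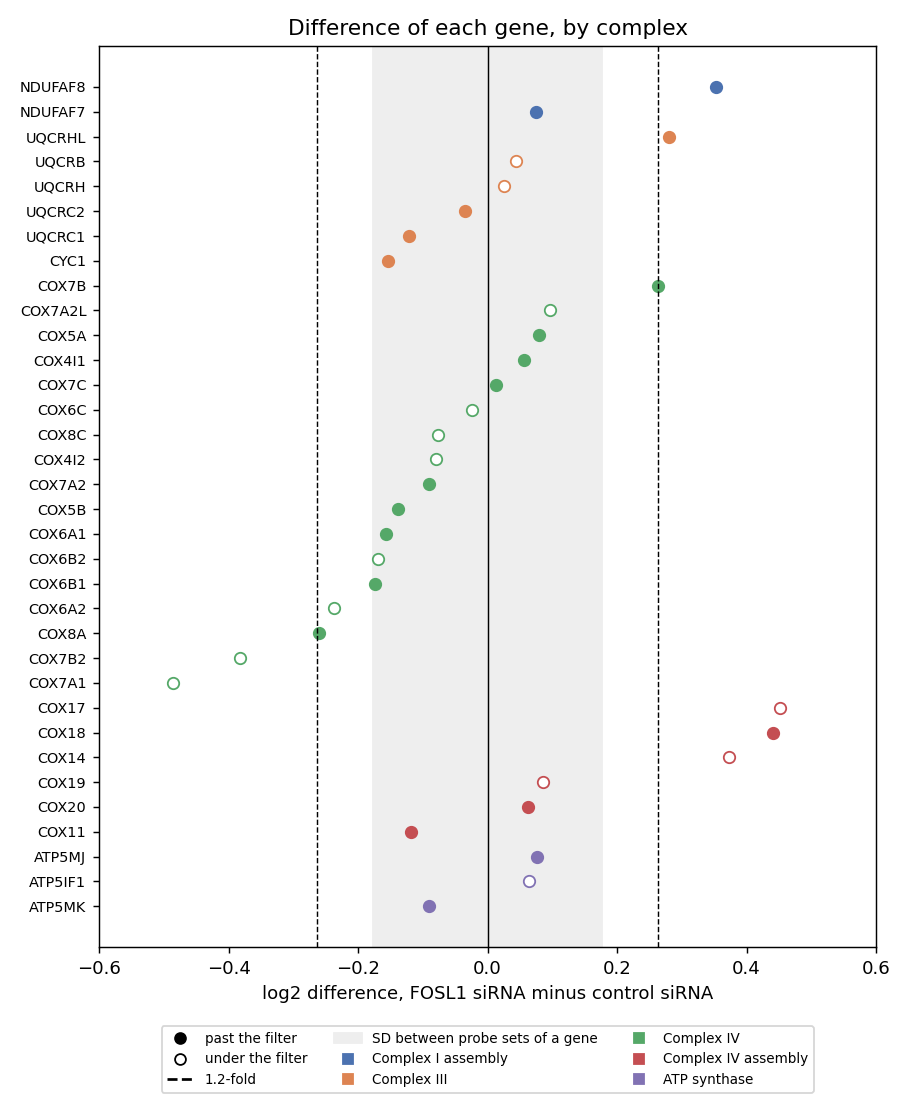
Log2 difference, FOSL1 siRNA minus control siRNA, of each of the 34 genes grouped by complex; filled points passed the filter on dim genes and open points did not. The grey band is the SD between probe sets of a gene (0.177) and dashed lines mark 1.2-fold; COX18, NDUFAF8 and UQCRHL are the filled points beyond a dashed line, all on the higher side.

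The promoters of 3 genes that hold letters of factors known for this pathway are shown, COX18 (difference 0.44), COX17 (0.45) and COX8A (-0.26). COX6A1 (-0.16 on its brighter probe set), ATP5MK (-0.09), COX5B (-0.14) and UQCRH (0.03) also hold such letters and are not shown. The genes shown are thus those with the larger differences, and whether letters go with a difference was not tested. The sequences are the bases before the first start that RefSeq lists for the gene (GRCh38.p14), 5′ to 3′, and 27 of the 34 genes had an entry. Capitals mark matches on either strand to GCGCATGCG, the core bound by nuclear respiratory factor NRF1, or to CCGGAAGT, an ETS site such as GABPA binds. COX18 is shown up to the end of its match, because another start of this gene lies upstream of the one used. The position of the match relative to that other start is not given here. The others are shown over 250 bases.
COX18 promoter, chr4:73069754-73069966, minus strand: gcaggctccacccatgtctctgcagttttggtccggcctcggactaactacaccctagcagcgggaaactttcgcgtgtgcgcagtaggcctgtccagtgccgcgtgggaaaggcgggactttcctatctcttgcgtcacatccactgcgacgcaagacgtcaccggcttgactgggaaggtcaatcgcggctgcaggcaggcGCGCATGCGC
COX17 promoter, chr3:119677407-119677656, minus strand: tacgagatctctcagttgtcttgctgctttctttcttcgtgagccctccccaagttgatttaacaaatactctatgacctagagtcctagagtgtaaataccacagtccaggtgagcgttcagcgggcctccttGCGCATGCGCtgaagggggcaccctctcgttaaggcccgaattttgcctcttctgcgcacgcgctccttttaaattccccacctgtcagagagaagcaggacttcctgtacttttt
COX8A promoter, chr11:63974370-63974619, plus strand: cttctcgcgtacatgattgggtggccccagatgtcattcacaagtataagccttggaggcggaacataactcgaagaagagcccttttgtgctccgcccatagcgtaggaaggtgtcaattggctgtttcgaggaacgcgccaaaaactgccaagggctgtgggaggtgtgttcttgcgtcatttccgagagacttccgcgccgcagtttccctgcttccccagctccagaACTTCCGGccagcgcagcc

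Within 250 bases before the start, the NRF1 letters were found in 3 of the 27 genes (11.1%), COX17, COX18 and COX6A1, and in 1.78% of the 27305 genes of the RefSeq promoter table. The matches began 116 bases before the start of COX17 and 47 bases before that of COX18, where the letters occur on both strands as overlapping matches. COX17, which lay under the filter, and COX18 had the highest differences of the group, 0.45 and 0.44. COX6A1 had -0.16 on its brighter probe set and 0.29 on the dimmer. The motifs were chosen with earlier results of these data known, and a link between a motif and a difference was not tested. NRF1 itself had a log2 value of 8.98 with FOSL1 siRNA and 8.74 with control siRNA. Its difference of 0.23 did not reach the 1.2-fold threshold of 0.2630. The ETS letters were found in 4 of the 27 genes (14.8%), ATP5MK, COX5B, COX8A and UQCRH, and in 3.64% of all genes. Differences of these 4 were -0.09, -0.14, -0.26 and 0.03. TGAGTCA, the AP-1 consensus that reads TGACTCA on the other strand, was found in 0 of the 27 genes and in 4.16% of all genes, which says only that these letters are not in these windows. No window of the 27 genes held more than 1 of the 3 motifs. The motif shares of all genes are over every gene of the promoter table, not over genes named on the array or past the filter. A matched comparison was not made. A match to letters is a description and shows no binding.

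Subunits of complex IV that passed the filter had a median difference of -0.09, with 4 of 9 above 0 and none past 1.2-fold. Without COX6A1, whose probe sets disagree, the median was -0.04, and with probe sets of a gene averaged it was 0.03, on the other side of 0. COX4I1, the widely expressed form of the subunit that senses ATP, had 13.21 with FOSL1 siRNA and 13.16 with control siRNA, a difference of 0.06. COX5A, which joins COX4 early in assembly, had 11.69 with FOSL1 siRNA and 11.61 with control siRNA, a difference of 0.08. COX5B, a zinc-binding subunit on the matrix side, had 9.23 and 9.37 on the FOSL1 siRNA and control arrays, a difference of -0.14. All 3 lay within the SD between probe sets.

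Among the small subunits around the core were the lowest and the highest difference of complex IV past the filter. COX8A, a single-span membrane subunit (Entrez gene 1351), had 12.09 with FOSL1 siRNA and 12.35 with control siRNA, and its difference of -0.2605 was the lowest of the 20 genes past the filter. COX7B, a small subunit needed for assembly of the complex (Entrez gene 1349), had 9.32 with FOSL1 siRNA and 9.06 with control siRNA, a difference of 0.2626. Both lay just inside the 1.2-fold threshold of 0.2630, on opposite sides of 0. COX6B1, which bridges the dimer in the intermembrane space, had 9.08 with FOSL1 siRNA and 9.25 with control siRNA, a difference of -0.17. COX7A2 and COX7C had differences of -0.09 and 0.01, at 9.80 and 8.54 with FOSL1 siRNA and at 9.89 and 8.53 with control siRNA.

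COX6A1 is a gene whose probe sets disagree. The brighter, probe set 17008088, had 13.66 with FOSL1 siRNA and 13.82 with control siRNA, a difference of -0.16. The dimmer, probe set 16757886, had 6.50 with FOSL1 siRNA and 6.22 with control siRNA, a difference of 0.29. Probe sets on this array are numbered along the genome, and the brighter stands between C6orf89 and PIM1, with all 6 neighbours on chromosome 6, whereas COX6A1 lies on chromosome 12. RefSeq places the pseudogene COX6A1P2 between C6orf89 and PIM1. The dimmer probe set is the 1 whose neighbours lie on chromosome 12. The probe sets of the other 33 genes, 1 each, stood among genes of their own chromosome.

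The tissue-restricted isoforms of complex IV were all under the filter and all below 0. COX7A1, the heart and muscle form of COX7A, had 6.19 with FOSL1 siRNA and 6.67 with control siRNA, and its difference of -0.49 was the lowest of the 34 genes. COX7B2, a testis form, had 5.04 with FOSL1 siRNA and 5.42 with control siRNA, a difference of -0.38. These 2 were the isoforms at least 1.2-fold lower, where 19.8% of all genes under the filter were. COX6A2, the heart and muscle form of COX6A, had 6.83 and 7.07 on the FOSL1 siRNA and control arrays, a difference of -0.24.

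The other isoforms were closer to 0. COX6B2, a testis form, had 7.13 with FOSL1 siRNA and 7.30 with control siRNA, a difference of -0.17. COX4I2, the lung form of COX4, had 7.47 and 7.55 on the FOSL1 siRNA and control arrays, and COX8C, a testis form, had 5.15 and 5.23, each with a difference of -0.08. Over these 6 isoforms the median was -0.20, while all genes under the filter had a median of -0.06 and 58.9% of them were below 0. The widely expressed partners of the 6 isoforms, all past the filter, had a median of -0.12, with 4 of 6 below 0. COX6A1 counts here by its brighter probe set, the one among chromosome 6 neighbours. Its dimmer probe set, at 6.50 and 6.22 on the FOSL1 siRNA and control arrays, lay under the filter and above 0.

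COX6C and COX7A2L complete complex IV, both under the filter. COX6C had 7.18 with FOSL1 siRNA and 7.21 with control siRNA, a difference of -0.02. COX7A2L, which links complex III to complex IV in supercomplexes, had 8.05 with FOSL1 siRNA and 7.95 with control siRNA, a difference of 0.10.

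Of the 6 complex III genes, 3 lay above 0 and 3 below, with a median of -0.0045, and the 4 past the filter had a median of -0.08. CYC1, the haem-bearing cytochrome c1, had 11.93 with FOSL1 siRNA and 12.08 with control siRNA, a difference of -0.15. UQCRC1, a core protein on the matrix side, had 10.71 with FOSL1 siRNA and 10.83 with control siRNA, a difference of -0.12, and UQCRC2, its partner, had 12.42 and 12.46 on the same arrays, a difference of -0.03. Each of these 3 lay within the SD between probe sets. UQCRB, a subunit near the ubiquinone site, and UQCRH, the hinge protein that guides cytochrome c, were under the filter, with differences of 0.04 and 0.03.

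UQCRHL, a copy of UQCRH without introns (Entrez gene 440567), had 10.61 with FOSL1 siRNA and 10.33 with control siRNA. It was 1.21-fold higher, a difference of 0.28 that ranked 726 of 7442. UQCRH had 7.95 with FOSL1 siRNA and 7.92 with control siRNA. The copies are near-identical in sequence, so which of them each probe set measured is uncertain. RefSeq also lists at least 1 pseudogene named after 17 of the 34 genes, 12 of them past the filter, among them COX7B with 4 and COX6B1 with 7. Their part in the values was not tested.

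Of the ATP synthase, 3 small proteins were named and all lay within the SD between probe sets. ATP5MJ, a membrane subunit of the stator, had 9.07 with FOSL1 siRNA and 8.998 with control siRNA, a difference of 0.08. ATP5MK, a subunit that supports dimers of the enzyme, had 9.53 with FOSL1 siRNA and 9.62 with control siRNA, a difference of -0.09. ATP5IF1, the inhibitor that blocks ATP hydrolysis, had 7.89 and 7.82 on the FOSL1 siRNA and control arrays, a difference of 0.06 under the filter. The catalytic subunits of the enzyme were not among the genes named.

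**Figure D3:**
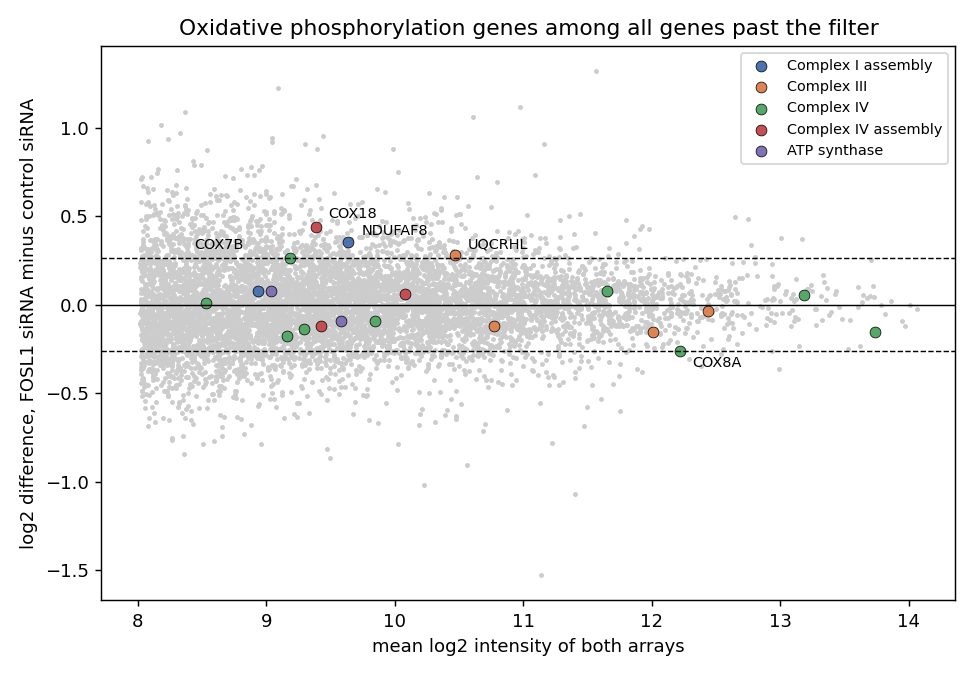
Log2 difference (FOSL1 siRNA minus control siRNA) against the mean log2 intensity of both arrays for the 7442 genes past the filter (grey) and the 20 oxidative phosphorylation genes among them (coloured by complex); dashed lines mark 1.2-fold. The coloured points run from -0.26 for COX8A to 0.44 for COX18 and lie within the cloud of all genes.

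Gene span moved with the difference across the array. Over all 7442 genes the Spearman correlation of span and difference was 0.345, as a description across genes, which are not independent replicates. In the 2481 genes of shortest span the median difference was -0.10 and 31.2% were above 0, and in the 2481 of longest span it was 0.07 and 66.1%. Oxidative phosphorylation genes were short: the 20 past the filter had a median span of 8576 bases, against 27446 over all genes, and 15 of them were among the 2481 shortest. Of these 15, 7 were above 0.

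With a trend on span removed, the median of the 20 genes was 0.02, and their count at least 1.2-fold higher was 4, COX7B being the addition at 0.34, where 10.1% of all genes were after the same removal. NDUFAF8 then stood at 0.47, COX18 at 0.46 and UQCRHL at 0.49. COX8A stood at -0.15, CYC1 at -0.05 and COX6B1 at -0.11. The span taken for UQCRHL was 276 bases, against a median of 1952.5 in the shortest of 10 bins of span. Its probe set may measure UQCRH, with a span of 13079 bases, so its value with the trend removed is uncertain. Assembly factors had a median of 0.13 and subunits -0.03 after this removal, with 4 of 5 and 6 of 15 above 0 as before. The cause of the trend was not tested.

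**Figure D4:**
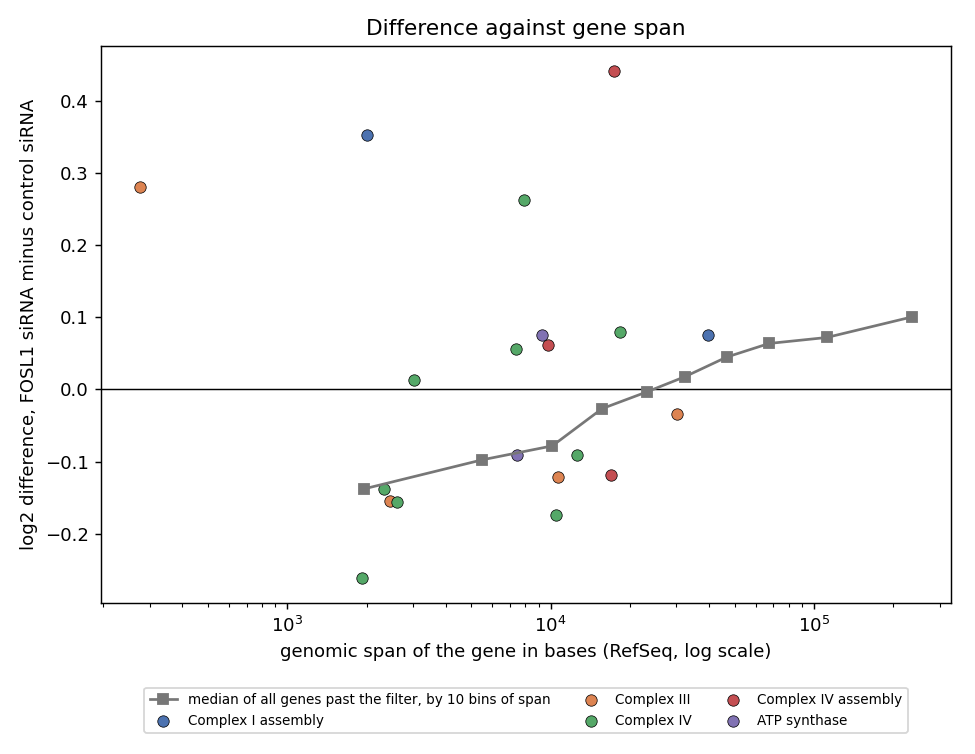
Log2 difference (FOSL1 siRNA minus control siRNA) against genomic span in bases, on a log axis, for the 20 oxidative phosphorylation genes past the filter; grey squares are medians of all 7442 genes in 10 bins of span. The grey medians run from -0.14 for the shortest genes to 0.10 for the longest, and NDUFAF8 and COX7B lie above the line while COX8A lies below it.

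Genes next to the pathway were taken from lists written with earlier results of these data known. Of the 47 further assembly factors of the respiratory chain, 40 were named and 33 passed the filter. At least 1.2-fold higher were 5 of the 33 and at least 1.2-fold lower was 1, where 11.1% and 9.78% of all genes were. The higher genes were LYRM7, which helps insert the iron-sulfur subunit of complex III, with 9.27 against 8.78 on the FOSL1 siRNA and control arrays, TMEM126A and TMEM126B, both of complex I assembly, NUBPL, an iron-sulfur carrier for complex I, and UQCC1, of complex III assembly. Their differences were 0.48, 0.35, 0.29, 0.30 and 0.29. ATPAF2, which assembles the catalytic head of the ATP synthase, was at -0.30, with 7.98 and 8.27 on the same arrays.

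The feeding pathways had medians near 0. Of 26 citrate cycle and pyruvate genes 13 passed the filter, with a median of -0.05 and 4 above 0. PC, pyruvate carboxylase, was 1.53-fold lower with 9.03 with FOSL1 siRNA and 9.64 with control siRNA, and PDHA1, a subunit of pyruvate dehydrogenase, was highest at 0.15. Ubiquinone synthesis and cytochrome c genes, 7 of 15 past the filter, had a median of -0.03, between COQ8A, a kinase-like protein of ubiquinone synthesis, at -0.33 and COQ10A at 0.19. Glycolysis genes, 9 of 20 past the filter, had a median of -0.05, with PGAM1, a mutase, lowest at -0.65 and HK2, a hexokinase, highest at 0.07. PC (1 of 13), COQ8A (1 of 7) and PGAM1 (1 of 9) were the genes of these 3 lists past 1.2-fold, all lower. Of all genes, 9.78% were lower by that much, 11.1% higher and 20.9% past it in either direction. Above 0 were 49.8% of all genes past the filter, beside 4 of the 13 citrate cycle and pyruvate genes.

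Genes of mitochondrial import and inner membrane organisation, 29 of 36 past the filter, had a median of -0.02, with 11 above 0. TIMM9, a chaperone of the intermembrane space, was highest at 0.38 and MICOS13, of the cristae junction complex, lowest at -0.27, and these were the 2 of the 29 past 1.2-fold, against that share of 20.9%. For mitochondrial DNA upkeep, transcription and regulators, 7 of 21 passed the filter, with a median of 0.06 and 6 above 0. NRF1 was highest and YY1, a transcription factor, lowest at -0.03. Past 1.2-fold were 0 of these 7, against the same 20.9%. The counts above 0, 11 of 29 and 6 of 7, stand beside 49.8% of all genes past the filter. A shift of either list was not tested.

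**Figure D5:**
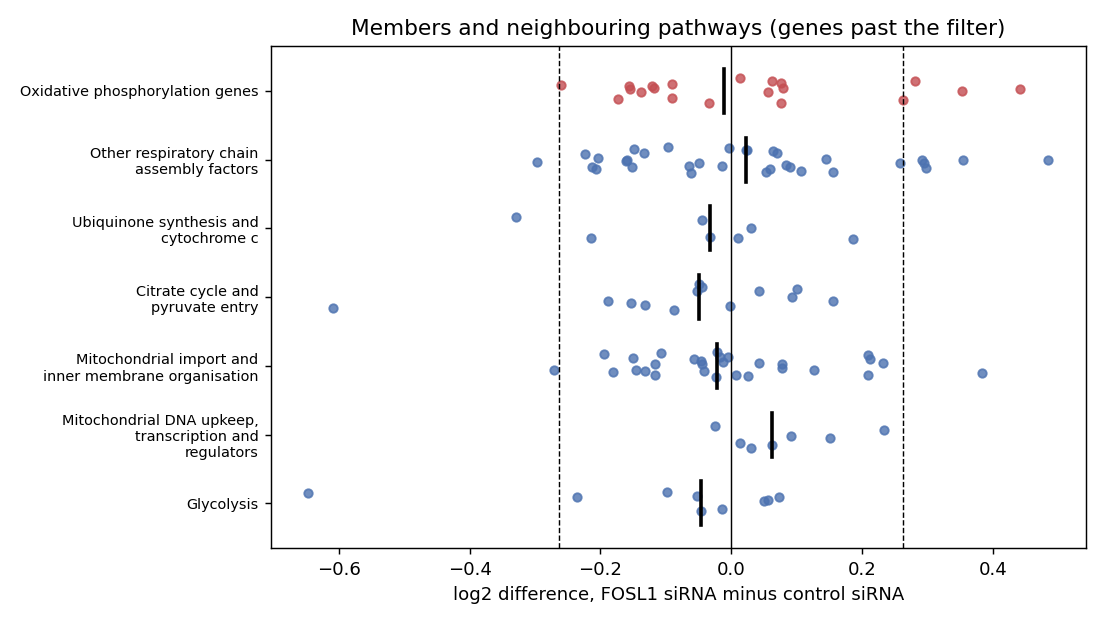
Log2 difference (FOSL1 siRNA minus control siRNA) of the genes past the filter, for the oxidative phosphorylation genes (top) and 6 lists of neighbouring pathways; each point is a gene, with vertical scatter for legibility, the black bar is the median and dashed lines mark 1.2-fold. Medians of all 7 rows lie between -0.05 and 0.06, and PC and PGAM1 are the points farthest to the left.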

How the data were processed

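Total RNA of 2 UACC62 cultures was measured, 1 array per group, 100 ng of it amplified with a whole-transcript kit and labelled with biotin, per the labels' protocols. The authors deposited 1 value per probe set and array, taken as log2 after its range; sorted values of the arrays differ by at most 0.0301, as after quantile normalization. Background correction, probe set summary and array build are not given in the sources used here. Probe sets were named from GEO's platform annotation (16098 of 53427 with 1 gene symbol). Spans and names came from RefSeq, GRCh38.p14, by Entrez ID.

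Genes were summarised with Python 3.11.15 (pandas 2.3.3, statsmodels 0.14.6), and the code was tested on simulated data. With 1 array per group no p-value was computed. Members, lists and motifs were chosen with earlier results of these data known. Named with values were all 34 genes and, of each related list, at least the highest and the lowest gene. Alternatives were 2 scalings, removal of lowess trends (fraction 0.3) on mean value or span, other filters, thresholds of 1.1-fold and 1.5-fold, means of probe sets and list means. Leaving out genes with near-identical copies, and taking assembly factors and subunits each together, were chosen after seeing the data. The number of arrays limits the precision.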

Additional observations from a re-analysis of the deposited data

Results flagged for a closer look

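The dimmer probe set of COX6A1, which the comparison did not use, was higher with FOSL1 siRNA by 0.288 on the log2 scale, with 6.50 with FOSL1 siRNA and 6.22 with control siRNA. COX10-DT, a non-coding RNA beside the gene COX10 that the choice of genes left out for its hyphen, was higher by 0.331, with 10.09 with FOSL1 siRNA and 9.76 with control siRNA. Both were noted because they exceed 1.2-fold in data outside the main comparison. The other hyphenated genes past the filter, NDUFA6-DT and NDUFB2-AS1, were lower, with differences of -0.20 and -0.11. At least 1.2-fold higher were 11.1% of all genes past the filter, where COX10-DT lay. Under the filter, where the dimmer COX6A1 probe set lay, 12.3% of genes were.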

How the results depend on the processing

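No paired analysis was possible because each condition had 1 array. The median of the oxidative phosphorylation genes was so near 0 that its sign turned: it was 0.0159 with the span trend removed, 0.0564 as a mean of probe sets (where COX6A1 changed sign to 0.07 and COX7A2L passed the filter) and 0.0181 as a list mean, and it was -0.0624 with the filter at the 75th percentile. With the span trend removed, complex IV was at -0.0273, ATP synthase at 0.0708, subunits at -0.0273, ubiquinone synthesis at 0.0157 and mitochondrial import at 0.00236. As a mean of probe sets, complex IV was at 0.0345, subunits at -0.0108 and the further assembly factors at -0.00411. With the filter at the 75th percentile, complex I assembly was at 0.353 (1 gene), the assembly factors at 0.207 (2 genes) and the further assembly factors at -0.0620. With no filter, complex IV assembly was at 0.229, ATP synthase at 0.0641 and the assembly factors at 0.219. As list means, assembly factors were at 0.163 and subunits at -0.0301. Genes at least 1.2-fold higher numbered 5 of 34 with no filter, where 11.7% of all 14884 genes were, and 0 at 1.5-fold. Those lower numbered 1 after quantile normalization over named genes and 1 with the intensity trend removed (COX8A in both, at -0.27), 2 of 34 with no filter, where 14.8% of all genes were, and 5 at 1.1-fold, where 24.1% of all genes were lower. The counts differ by construction where the filter or threshold changed, and otherwise the cause was not tested. Of 101 values of single genes under alternatives, 99 stayed within the SD between probe sets of the reported value. COX6A1 as a mean of probe sets and UQCRHL with the span trend removed (0.49) moved by more. Many of the 101 could not move. Averaging probe sets changes only a gene with several, and 1 of the 34 had several. Centring each array on its median shifts every gene alike. The count of 99 is therefore no measure of stability.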
